A study of Mus musculus with 9 samples.

Results

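Subunits 4, 6a, 7a and 8 of cytochrome c oxidase (complex IV) are each encoded in the mouse by an isoform gene used in most tissues and by at least 1 isoform gene with a restricted range. The 8 genes described here are the 4 ubiquitous forms Cox4i1, Cox6a1, Cox7a2 and Cox8a and the 4 restricted forms Cox4i2, Cox6a2, Cox7a1 and Cox8b. They were chosen by symbol, and all their probe sets in the array annotation were taken, which gave 13 of 45101 probe sets and 8 of 18193 genes. None of the 13 probe sets names a further gene. The groups set the isoforms of cells induced from fibroblasts beside those of heart muscle cells and of the fibroblasts they were made from.

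Total RNA was measured on 1-colour Affymetrix expression arrays, with 3 arrays of chemically induced cardiomyocyte-like cells (CiCM), 3 of cardiomyocytes (CM) and 3 of mouse embryonic fibroblasts (MEF). CiCM had been made by treating MEF with 10 µM CHIR99021, 10 µM RepSox, 50 µM forskolin, 0.5 mM VPA, 5 µM Parnate and 1 µM TTNPB, and contracting clusters were collected on day 24, so a CiCM sample is a hand-picked cluster and not a sorted cell type. CM came directly from mouse heart, and the age and strain of those mice are not given in the sources used here. MEF were prepared at embryonic day 13.5 from C57BL/6 embryos and received none of the 6 compounds. The labels call the 3 arrays of a group biological replicates without saying which embryos, hearts or inductions they came from, so p-values measure the spread between these samples only.

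Cytochrome c oxidase is the terminal enzyme of the mitochondrial respiratory chain: it takes electrons from cytochrome c, reduces oxygen to water and pumps protons. Its catalytic core is made from mitochondrial genes, and a ring of small nuclear-encoded subunits, among them the ones described here, stabilises and tunes that core. Cox6a2, Cox7a1 and Cox8b are the forms of heart and skeletal muscle alike, Cox7a1 and Cox8b are also strongly expressed in brown fat, and Cox4i2 is known from lung, from pericytes and smooth muscle of vessels, and from responses to low oxygen.

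The stretches just upstream of the transcription start are shown for subunits 7a and 8, the 2 subunits for which the RefSeq promoter table held both isoforms, since within each of them 1 isoform differed far more between the groups than its partner. Each line gives the 250 bases before the RefSeq start on the gene's own strand, 5′ to 3′ (GRCm38.p6), with every CG dinucleotide in capitals. The windows are chr7:30183921-30184170 (plus strand) for Cox7a1, chr9:79759854-79760103 (minus strand) for Cox7a2, chr7:140900447-140900696 (minus strand) for Cox8b and chr19:7217617-7217866 (minus strand) for Cox8a.
Cox7a1: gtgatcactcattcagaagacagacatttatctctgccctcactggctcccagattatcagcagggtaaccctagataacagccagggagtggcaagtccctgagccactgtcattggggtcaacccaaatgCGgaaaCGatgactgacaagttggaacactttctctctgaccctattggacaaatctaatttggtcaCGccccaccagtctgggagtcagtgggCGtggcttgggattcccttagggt
Cox7a2: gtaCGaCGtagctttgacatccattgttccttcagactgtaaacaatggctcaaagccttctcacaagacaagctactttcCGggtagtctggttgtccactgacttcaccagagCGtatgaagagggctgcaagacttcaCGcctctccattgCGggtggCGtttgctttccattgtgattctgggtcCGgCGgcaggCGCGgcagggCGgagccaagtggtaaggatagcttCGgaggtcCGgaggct
Cox8b: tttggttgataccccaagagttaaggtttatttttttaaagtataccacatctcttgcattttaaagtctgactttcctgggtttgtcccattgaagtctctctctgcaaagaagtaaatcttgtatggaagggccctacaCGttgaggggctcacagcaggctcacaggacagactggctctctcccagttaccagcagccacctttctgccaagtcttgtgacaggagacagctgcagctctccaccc
Cox8a: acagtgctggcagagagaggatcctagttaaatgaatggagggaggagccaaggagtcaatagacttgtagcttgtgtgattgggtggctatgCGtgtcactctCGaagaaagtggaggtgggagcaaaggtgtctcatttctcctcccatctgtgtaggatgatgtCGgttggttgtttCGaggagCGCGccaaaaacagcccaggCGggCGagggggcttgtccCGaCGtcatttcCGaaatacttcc

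The muscle forms held fewer CG dinucleotides than their ubiquitous partners, with 4 in Cox7a1 beside 14 in Cox7a2, and 1 in Cox8b beside 11 in Cox8a. The median over 32851 RefSeq promoter windows of the same length was 6. Base composition differed less, with 51.2% G and C in Cox7a1 beside 54.8% in Cox7a2, and 47.2% in Cox8b beside 52.8% in Cox8a. In the Cox6a1 window, at chr5:115348959-115349208 (minus strand), 26 CG dinucleotides and 62.8% G and C were counted. Windows of Cox4i1, Cox4i2 and Cox6a2 were not used here.

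Matches to 6 short motifs were looked for on both strands of these windows. The E-box core CANNTG, which basic helix-loop-helix factors of muscle and many other cells can bind, occurred 1 time each in Cox7a1 (124 to 119 bases before the start), Cox8b (19 to 14), Cox7a2 (35 to 30) and Cox8a (102 to 97). Of all windows, 66.2% held it. The Cox8b match was of the form CAGCTG, found in 13% of windows, and is the same match counted under both motifs. The palindromic motif of the respiratory regulator NRF1, searched as its 10-base consensus, was matched in Cox6a1 only (162 to 153), beside 0.782% of all windows. The ETS core CCGGAA was matched in Cox6a1 (15 to 10) and Cox7a2 (172 to 167), beside 12.0% of windows. The MEF2 motif and TATAAA were matched in none of the 5 windows, beside 2.92% and 12.4% of all windows. Such matches describe letters in a window and not bound sites.

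Values are log2 signals as deposited, scaled by the authors to 1 common trimmed mean, and where a gene had several probe sets, the one brightest on average over the 9 arrays stands for it. Differences were tested with limma in 1 fit of all 9 arrays, with Benjamini-Hochberg adjustment over the 12559 genes whose highest group mean reached 6.58, the median of the table. Calls needed both an adjusted p below 0.05 and a difference of 1 or more on the log2 scale. All 8 isoform genes passed the filter, Cox4i2 through the CiCM and CM arrays alone and Cox8b through the same 2 groups. A log2 signal is a property of its probe set, so levels of different genes are not ranked against each other.

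Array medians lay between 6.41 and 6.53 for CiCM, 6.75 and 6.85 for CM, and 6.37 and 6.53 for MEF. The 18 hybridisation control probe sets, which measure RNA of fixed amount added by the laboratory, averaged 11.73 to 11.98 on CiCM, 12.10 to 12.78 on CM and 11.63 to 11.71 on MEF arrays, so the controls too read higher on CM arrays. All 16 cardiomyocyte markers were called higher in CM than in MEF. In CiCM, 9 of these 16 were called above MEF and 15 were called below CM, with Myh6 at 6.75, 7.998 and 6.64 in CiCM against 15.41, 15.94 and 15.79 in CM. Of 16 skeletal muscle markers, calls of higher signal in CiCM numbered 16 against MEF and 15 against CM, so skeletal muscle transcripts were present in the induced cells. The 9 cardiac calls of CiCM over MEF were led by Myoz2, Myl2 and Tnnt2, which slow or developing skeletal muscle also expresses, and those of Pln, Tbx20 and Gata4 fell under the minimum with 32 added to the linear signals, at 0.84, 0.69 and 0.76. Hand2 was called lower at -1.25, and Myl7, Nppa, Nppb, Ryr2, Kcnip2 and Nkx2-5 were not called. Myh6 was at the floor of 0 on MEF replicate 2. Fibroblast markers summed to log2 levels of 17.12 to 17.18 in CiCM, 15.67 to 16.10 in CM and 17.38 to 17.40 in MEF, and macrophage markers to 12.28 to 13.04 in CiCM, 14.29 to 14.78 in CM and 15.15 to 15.27 in MEF. Single fibroblast markers were split. Of 14, 2 were called higher and 4 lower for CiCM minus MEF, beside 11.6% and 12.2% of all tested genes, from Lum at 2.84 to Cd44 at -2.13. For CM minus MEF 3 were called higher and 11 lower, beside 22.1% and 21.8%. CM replicate 1 stood apart within its group, with Ucp1 of brown fat at 13.27 beside 6.60 and 3.64 on the other CM arrays and the atrial gene Myl7 at 15.05 beside 9.25 and 5.98.

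**Figure D1:**
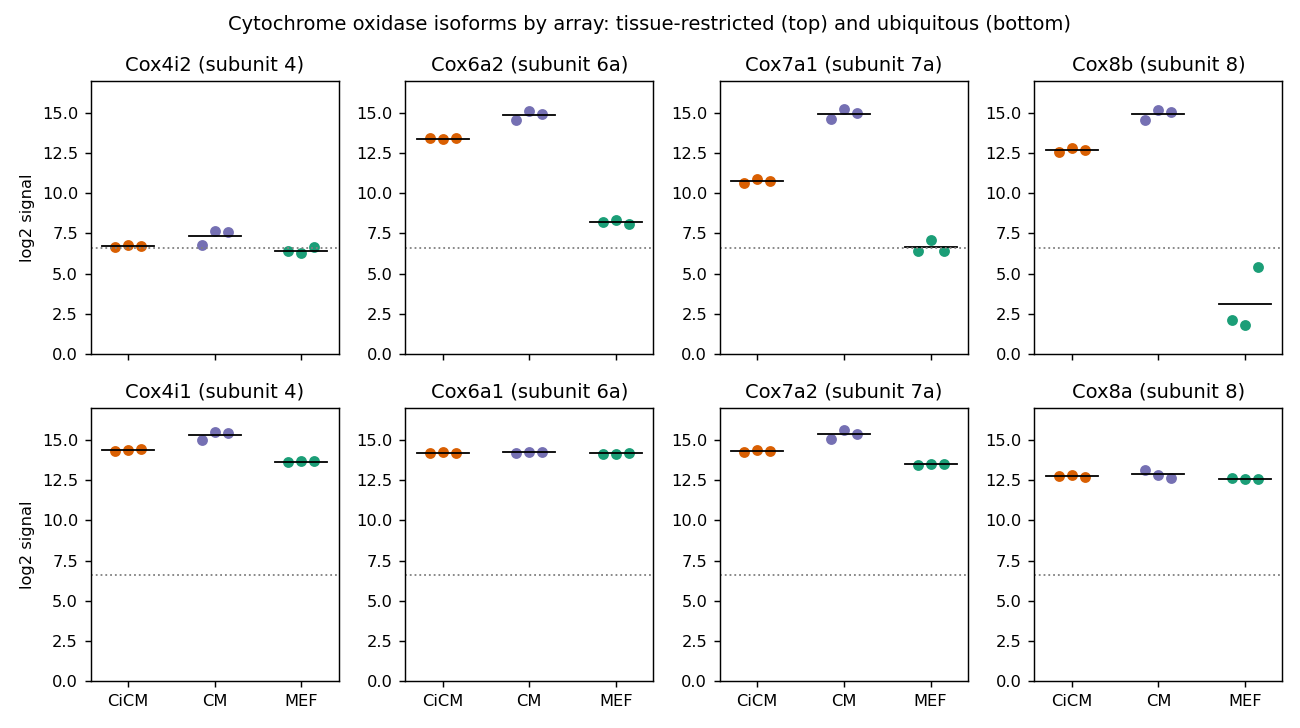
Log2 signal of the 8 isoform genes on each of the 9 arrays (points), with the group mean as a black line, the restricted forms above and the ubiquitous forms of the same subunits below. The dotted line marks 6.58, the median of the table. Cox6a2, Cox7a1 and Cox8b separate all 3 groups, whereas Cox6a1 lies between 14.17 and 14.27 on every array.

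Subunit 6a, whose muscle form Cox6a2 takes the place of Cox6a1 in the complexes of heart and skeletal muscle, showed a large difference in the muscle form and next to none in the ubiquitous one. Cox6a2 read 13.42, 13.38 and 13.42 in CiCM, 14.59, 15.14 and 14.97 in CM and 8.20, 8.31 and 8.10 in MEF. The groups did not overlap, and the order was CM, CiCM, MEF. The difference was 5.20 (SE 0.13, limma adjusted p = 8.29e-10) for CiCM minus MEF, a 36.8-fold higher signal in CiCM. It was 6.69 (SE 0.13, limma adjusted p = 8.12e-11) for CM minus MEF and -1.49 (SE 0.13, limma adjusted p = 2.66e-06) for CiCM minus CM, which fell short of the minimum at -0.92 on the hybridisation controls. In bulk RNA of this kind, fewer cells of a type and less RNA per cell cannot be told apart. The second Cox6a2 probe set read 12.70, 12.21 and 12.43 in CiCM, 14.29, 14.89 and 14.47 in CM and 4.97, 6.39 and 6.00 in MEF. It gave the same order with wider gaps, 6.66 for CiCM minus MEF, 8.76 for CM minus MEF and -2.10 for CiCM minus CM.

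Cox6a1 had the narrowest range of the 8 genes. Its values were 14.18, 14.27 and 14.18 in CiCM, 14.24, 14.26 and 14.25 in CM and 14.17, 14.17 and 14.19 in MEF. The CiCM arrays overlapped both other groups, while the lowest CM array lay just above the highest MEF array. Its difference was 0.04 (limma adjusted p = 0.680) for CiCM minus MEF, 0.07 (0.366) for CM minus MEF and -0.03 (0.672) for CiCM minus CM, and each of these signs turned under quantile normalisation, median centring and levelling on the hybridisation controls. The second Cox6a1 probe set gave -0.02, -0.09 and 0.06 for the same comparisons, with overlapping arrays of 13.01 to 13.14 in CiCM, 12.82 to 13.23 in CM and 13.01 to 13.21 in MEF.

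Subunit 7a, which lies where complex IV meets its neighbours in respiratory supercomplexes, differed in both isoforms. The muscle form Cox7a1 read 10.63, 10.88 and 10.78 in CiCM, 14.63, 15.23 and 15.04 in CM and 6.39, 7.07 and 6.41 in MEF. The 3 groups were far apart, and CiCM stood about midway between MEF and CM on the log2 scale. Cox7a1 was 4.14 higher in CiCM than in MEF (SE 0.20, limma adjusted p = 7.17e-08), a 17.6-fold higher signal. With 32 added to the linear signals, which damps ratios of dim probe sets, that difference was 3.75. It was 8.34 for CM minus MEF (SE 0.20, limma adjusted p = 2.34e-10), and -4.20 for CiCM minus CM (SE 0.20, limma adjusted p = 4.33e-08), the widest gap between CiCM and CM among the 8 genes on the deposited scale.

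Cox7a2, the ubiquitous form, had 14.30, 14.37 and 14.35 in CiCM, 15.06, 15.61 and 15.42 in CM and 13.48, 13.52 and 13.52 in MEF. No arrays of different groups overlapped. The difference was 0.83 for CiCM minus MEF (SE 0.12, limma adjusted p = 0.000243), past the adjusted p but under the minimum of 1. It was called for CM minus MEF at 1.85 (SE 0.12, limma adjusted p = 2.31e-07) and, narrowly, for CiCM minus CM at -1.02 (SE 0.12, limma adjusted p = 3.30e-05). That last call was lost, with the sign kept, at -0.58 under quantile normalisation, at -0.71 with medians centred, at -0.45 with arrays levelled on the hybridisation controls, and at -0.90 and -0.99 without CM replicate 2 or 3. A second Cox7a2 probe set gave 0.98 for CiCM minus MEF, 2.34 for CM minus MEF and -1.37 for CiCM minus CM.

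Subunit 8, a small subunit that crosses the inner membrane, held the widest difference of all, again in its muscle form. Cox8b read 12.58, 12.82 and 12.70 in CiCM, 14.60, 15.21 and 15.09 in CM and 2.11, 1.77 and 5.41 in MEF. The MEF arrays were all below the median of the table, and the third lay more than 3 units above the other MEF arrays, so the MEF mean of 3.09 ± 2.01 (SD, n = 3) is loose. The difference was 9.61 for CiCM minus MEF (SE 0.74, limma adjusted p = 2.23e-06), 11.87 for CM minus MEF (SE 0.74, limma adjusted p = 1.49e-07) and -2.27 for CiCM minus CM (SE 0.74, limma adjusted p = 0.0203). The size against MEF depended on the dim MEF signal: with 4 times 32 added to the linear signals the CiCM minus MEF difference was 5.56 and the CM minus MEF difference 7.81. The CiCM minus CM value barely moved under that change, at -2.24.

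The SE of Cox8b for CiCM minus CM contains the spread of the MEF arrays, which that comparison does not use. In a limma fit of CiCM and CM alone the same -2.27 had an adjusted p of 7.70e-06. In the fit of all groups the call was lost without CiCM replicate 1 (limma adjusted p = 0.0565), CiCM replicate 3 (0.0505), CM replicate 2 (0.0594) or CM replicate 3 (0.0528), and with array weights (0.113). Without MEF replicate 3 the limma adjusted p was 2.91e-06. The CiCM and CM arrays themselves did not overlap.

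Cox8a, the ubiquitous form, read 12.76, 12.83 and 12.71 in CiCM, 13.14, 12.85 and 12.66 in CM and 12.67, 12.59 and 12.58 in MEF. The CM arrays spanned the whole CiCM range and reached down into the MEF range. The difference was 0.15 for CiCM minus MEF (limma adjusted p = 0.274), 0.27 for CM minus MEF (limma adjusted p = 0.0503) and -0.12 for CiCM minus CM (limma adjusted p = 0.374), with signs that turned in all 3 comparisons when arrays were levelled on the hybridisation controls. A second probe set gave 0.15, 0.32 (limma adjusted p = 0.0372) and -0.16 in the same order. The third was dim, at 6.14, 5.14 and 6.31 in CiCM, 7.06, 7.65 and 6.98 in CM and 2.999, 5.73 and 5.84 in MEF, and its difference of 2.37 for CM minus MEF had an adjusted p of 0.0121 in limma.

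Subunit 4 is the largest nuclear-encoded subunit and binds ATP, which slows the enzyme; here the ubiquitous form differed and the restricted form was dim throughout. Cox4i1 read 14.31, 14.38 and 14.45 in CiCM, 15.04, 15.54 and 15.43 in CM and 13.63, 13.71 and 13.68 in MEF. The groups did not overlap. The difference was 0.71 for CiCM minus MEF (SE 0.12, limma adjusted p = 0.000588), 1.66 for CM minus MEF (SE 0.12, limma adjusted p = 4.22e-07) and -0.96 for CiCM minus CM (SE 0.12, limma adjusted p = 4.37e-05). Only the CM minus MEF value reached the minimum of 1, and it fell short of it at 0.86 when arrays were levelled on the hybridisation controls. For CiCM minus CM the minimum was reached at -1.10 without CM replicate 1 and at -1.003 with array weights.

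Cox4i2 had 6.68, 6.78 and 6.69 in CiCM, 6.78, 7.64 and 7.58 in CM and 6.39, 6.26 and 6.63 in MEF. These values lie around the median of the table, and CM replicate 1 sat level with the highest CiCM array. The difference was 0.29 for CiCM minus MEF (SE 0.30, limma adjusted p = 0.447), 0.91 for CM minus MEF (SE 0.30, limma adjusted p = 0.0196) and -0.62 for CiCM minus CM (SE 0.30, limma adjusted p = 0.0933). Cox4i2 was thus called in no comparison, although CM minus MEF reached 1.01 without MEF replicate 3, 1.19 without CM replicate 1 and 1.02 with array weights. Levelled on the hybridisation controls it was 0.10 (limma adjusted p = 0.796).

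Markers of vessel-wall (mural) cells, in which Cox4i2 is best known, differed in both directions between CM and MEF. Of 12, 7 were called higher and 3 lower in CM than in MEF, beside 22.1% and 21.8% of all tested genes. Their summed log2 level was 15.63 to 15.97 in CM, against 14.17 to 14.24 in MEF. The pericyte gene Rgs5 read 14.15, 14.46 and 14.55 in CM, against 9.72, 9.60 and 9.32 in MEF. The mural genes called lower in CM were Cnn1 at -6.82, Pdgfrb at -1.64 and Cspg4 at -1.01, and 2 of those called higher, Des at 4.21 and Abcc9 at 5.59, are expressed by muscle cells too. In CiCM the sum was 14.80 to 14.86. There 3 of the 12 were called higher and 3 lower than in MEF, beside 11.6% and 12.2% of all tested genes. Endothelial markers also were called higher in CM than in MEF, 10 of 10, with sums of 14.23 to 14.44 in CM against 9.81 to 10.26 in MEF. The part of these cells in the Cox4i2 values was not tested.

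In the comparison of CiCM with MEF, 3 of the 8 isoform genes were called higher (Cox6a2, Cox7a1 and Cox8b) and 0 lower, beside 11.6% of all tested genes called higher and 12.2% called lower. Without the minimum difference Cox4i1 and Cox7a2 joined them, making 5 higher and 0 lower, beside 24.2% of tested genes higher and 27.8% lower by that rule. The arrays of both groups did not overlap for 7 of the 8, all but Cox6a1, beside 68.5% of tested genes. The median difference was 0.77 over the 8 genes and -0.03 over all tested genes.

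In CM against MEF, 5 of the 8 were called higher (the same 3 muscle forms with Cox4i1 and Cox7a2) and 0 lower, beside 22.1% of tested genes called higher and 21.8% called lower. With no minimum Cox4i2 was the sixth, again with 0 lower, beside 33.6% of tested genes higher and 36.4% lower. On the hybridisation controls 4 were called with the minimum, since Cox4i1 fell to 0.86. All but Cox8a were free of overlap, 7 of 8, beside 75.2% of tested genes. The 8 genes had a median difference of 1.76 and all tested genes one of -0.03. The CiCM and CM comparisons share the 3 MEF arrays.

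Between CiCM and CM, 4 of the 8 were called lower in CiCM (Cox6a2, Cox7a1, Cox7a2 and Cox8b) and 0 higher, beside 19.0% of tested genes called lower and 16.5% called higher. The count was 2 on the hybridisation controls, 2 without CM replicate 2 or 3, 3 without CiCM replicate 1 or 3, and 5 without CM replicate 1. With no minimum Cox4i1 was the fifth, again with 0 higher, beside 31.9% of tested genes lower and 32.5% higher. The arrays of 6 of 8 genes did not overlap, with Cox6a1 and Cox8a as the exceptions, beside 67.9% of tested genes. The median was -0.99 for the 8 genes and -0.03 for all tested genes.

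Several members read near the top of the scale in CM. Of the 13 probe sets, 2 to 3 on CiCM arrays, 6 on each CM array and 1 on each MEF array lay within 1 log2 unit of the array's highest value. Whether signals there still rise in proportion to RNA was not tested.

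Dividing the restricted by the ubiquitous form within an array removes any scaling that multiplies all of its signals. With the MEF mean set to 0, the log2 ratio of Cox8b to Cox8a was 9.35, 9.51 and 9.51 in CiCM, 10.98, 11.87 and 11.96 in CM and -1.04, -1.30 and 2.35 in MEF. The ratio of Cox6a2 to Cox6a1 was 5.21, 5.08 and 5.21 in CiCM, 6.32, 6.85 and 6.69 in CM and -0.12 to 0.11 in MEF. The ratio of Cox7a1 to Cox7a2 was 3.22, 3.39 and 3.31 in CiCM, 6.46, 6.50 and 6.51 in CM and -0.23 to 0.43 in MEF. In these 3 subunits every CiCM array lay above every MEF array and below every CM array. Subunit 4 ran the other way: the ratio of Cox4i2 to Cox4i1 was -0.38, -0.36 and -0.51 in CiCM, -1.01, -0.65 and -0.60 in CM and -0.20 to 0.20 in MEF. Cox4i2 itself was not lower than in MEF, with differences of 0.29 for CiCM and 0.91 for CM. Those of Cox4i1 were larger, at 0.71 and 1.66, and Cox4i2 signals lay around the median of the table.

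**Figure D2:**
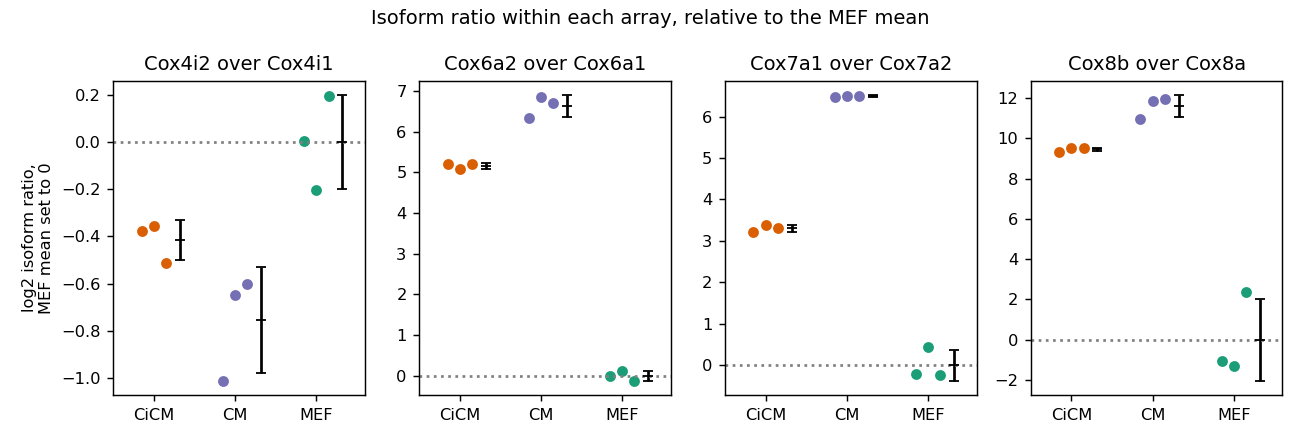
Log2 ratio of the restricted to the ubiquitous isoform within each array, with the MEF mean set to 0; points are arrays and bars show mean ± SD of 3 arrays, and each panel has its own scale. The ratio is higher in CiCM and CM than in MEF for subunits 6a, 7a and 8, and lower for subunit 4, where all arrays lie between -1.01 and 0.20. In subunit 4 neither isoform had a lower mean than in MEF, and Cox4i1 differed more than Cox4i2.

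The shift of the ratio for CiCM minus MEF was 9.45 (SE 1.18) for subunit 8, 5.16 (SE 0.078) for 6a, 3.31 (SE 0.22) for 7a and -0.42 (SE 0.12) for 4. For CM minus MEF it was 11.60 (SE 1.22) for subunit 8, 6.62 (SE 0.17) for 6a, 6.49 (SE 0.22) for 7a and -0.75 (SE 0.17) for 4. The gap that remained for CiCM minus CM was widest in subunit 7a at -3.18 (SE 0.052), followed by -2.15 (SE 0.32) for 8 and -1.46 (SE 0.16) for 6a, with 0.34 (SE 0.14) for 4. Each of the 12 shifts was seen without overlap and had p = 0.1 in an exact two-sided permutation test over the arrays, 0.1 after adjustment over the 12, and 0.1 is the smallest p that 3 against 3 arrays allow. Under quantile normalisation the CiCM minus CM shift of subunit 4 was 0.14 and its groups overlapped.

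The other nuclear-encoded genes listed for complex IV set the ubiquitous isoforms in context. Cox8c and Cox7a2l among them belong to the families of subunits 8 and 7a, which have a muscle form among the 8 genes. Of 11 listed, 9 were tested: Cox7b had no probe set and Cox7b2 was under the filter. For CiCM minus MEF 0 of 9 were called, beside 11.6% of all tested genes called higher and 12.2% lower. Without the minimum 6 were higher and 1 (Cox7c) lower by limma's adjusted p, beside 24.2% and 27.8%, and the median was 0.74. For CM minus MEF 6 were called higher, beside 22.1% of all tested genes. These were Ndufa4 at 1.98, Cox6b1 at 1.85, Cox6c at 1.76, Cox5b at 1.66, Cox5a at 1.32 and Cox8c at 1.07. On the hybridisation controls Cox6c, Cox5b, Cox5a and Cox8c fell under the minimum, at 0.96, 0.86, 0.52 and 0.26, and Cox8c did so at 0.94 with 32 added. Cox4i1 at 1.66 and Cox7a2 at 1.85 lay among these 6. Cox6a1 at 0.07 and Cox8a at 0.27 lay near Cox7a2l at 0.37 and Cox7c at 0.22, which were not called. The signs of these last 4 genes turned on the controls. The probe sets of Cox7c and Cox8c were dim. Their means in CiCM, CM and MEF were 7.37, 8.29 and 8.07 for Cox7c and 8.22, 8.51 and 7.45 for Cox8c. The exception in direction was Cox6b2, the testis form of subunit 6b, which read 9.89, 9.55 and 9.50 in CiCM, 8.14, 7.57 and 6.86 in CM and 9.87, 10.07 and 9.98 in MEF. It was called lower in CM than in MEF at -2.45 (limma adjusted p = 1.10e-05) and higher in CiCM than in CM at 2.12 (limma adjusted p = 4.70e-05). The other calls for CiCM minus CM were Cox5a at -1.06, Ndufa4 at -1.06 and Cox6c at -1.02, which were -0.49, -0.48 and -0.44 on the hybridisation controls.

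**Figure D3:**
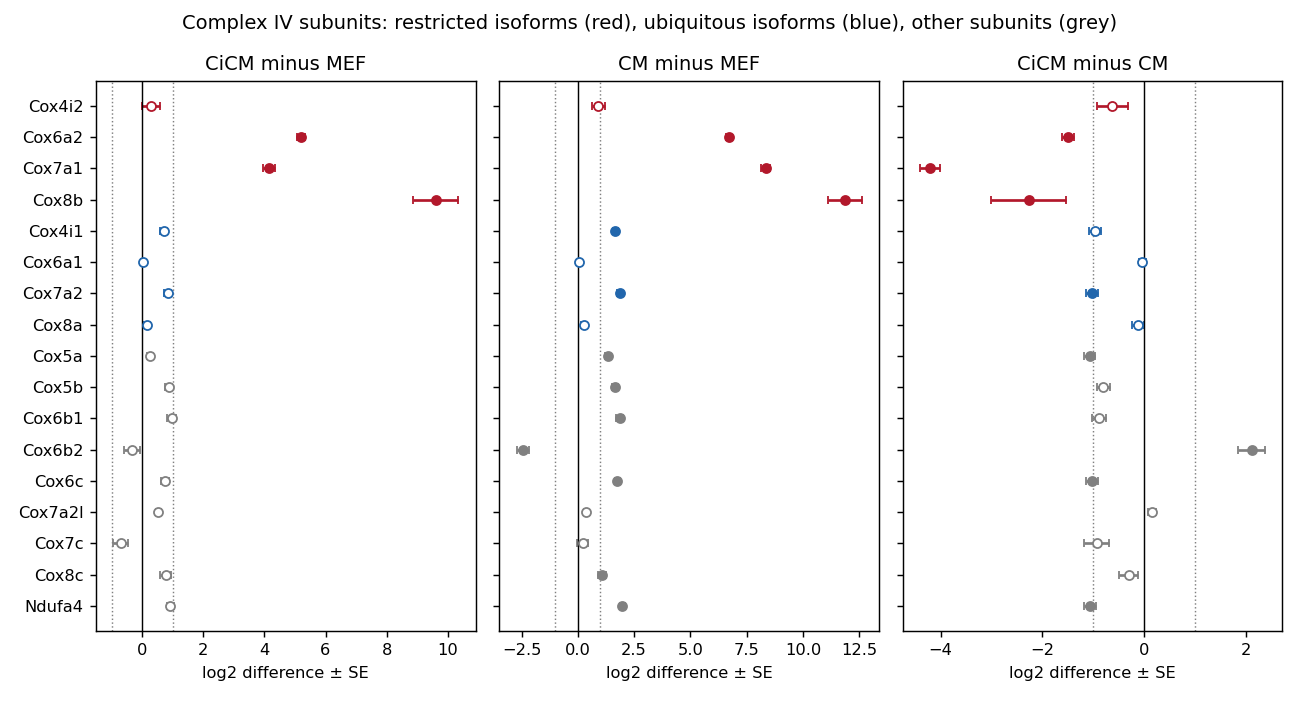
Log2 difference ± SE (limma, 3 arrays a group) of the restricted isoforms (red), the ubiquitous isoforms (blue) and 9 other complex IV subunits (grey) in the 3 comparisons; filled points were called and dotted lines mark differences of 1 either way. Cox6a2, Cox7a1 and Cox8b lie far to the right in both comparisons with MEF, and Cox7a1 lies farthest to the left in CiCM minus CM. Cox6a1 and Cox8a are near 0, and their signs turn when arrays are levelled on the hybridisation controls.

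Cytochrome c itself (Cycs), the electron donor of the enzyme, was 0.77 for CiCM minus MEF, under the minimum, and was called at 2.23 for CM minus MEF and -1.46 for CiCM minus CM. The adenine nucleotide carrier Slc25a4, the form of heart and muscle, gave 0.69, 1.84 and -1.15 in the same order. On the hybridisation controls the CiCM minus CM values were under the minimum, at -0.88 for Cycs and -0.58 for Slc25a4. Its ubiquitous counterpart Slc25a5 gave 0.12, 0.67 and -0.56 and was called in none.

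Assembly and copper-delivery factors of complex IV were tested for 21 of 24 listed genes, with Cox14, Pet117 and Taco1 lacking a probe set. In CiCM against MEF 2 were called higher and 0 lower, beside 11.6% and 12.2% of all tested genes, and the median was 0.40. Those were Cox19, a copper-handling factor, at 1.97 (limma adjusted p = 7.88e-07), and Cox20, a chaperone of the mitochondrially encoded subunit 2, at 1.01 (limma adjusted p = 3.61e-05), which fell under the minimum at 0.995 with 32 added, 0.95 with medians centred and 0.78 on the hybridisation controls. In CM against MEF 9 were called higher and 1 lower, beside 22.1% and 21.8% of all tested genes. The widest were Cmc2 at 2.36, Cox20 at 2.24, the copper chaperone Cox17 at 2.05 and the haem A enzyme Cox10 at 1.93. The hybridisation controls put Cox15, Pet100, Lrpprc, Fastkd2 and Tmem177 under the minimum, at 0.78, 0.21, 0.85, 0.66 and 0.245. The gene called lower was Cox18 at -1.28, named here after its value was seen. Between CiCM and CM 7 were called lower and 1 higher, beside 19.0% and 16.5% of all tested genes. Cox10 at -1.77, Cmc2 at -1.60, the mitochondrial RNA-binding protein Lrpprc at -1.37 and Cox20 at -1.23 led the lower calls. Levelling on the hybridisation controls left Lrpprc at -0.79, Cox20 at -0.66, Cox15 at -0.65, Cox17 at -0.56 and Fastkd2 at -0.43, short of the minimum. The gene called higher was Cox19 at 1.14, with 11.99, 12.22 and 12.05 in CiCM against 11.23, 10.92 and 10.68 in CM.

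Regulators tied to Cox4i2 or to supercomplex assembly were tested for 9 of 10 listed genes, Chchd2 having no probe set. Rbpj, which binds the promoter of human COX4I2, read 10.39, 10.47 and 10.42 in CiCM, 10.33, 9.92 and 10.05 in CM and 11.88, 11.87 and 11.81 in MEF. It was called lower in CiCM than in MEF at -1.43 (limma adjusted p = 1.80e-06) and lower in CM than in MEF at -1.75 (limma adjusted p = 1.27e-07). Epas1, the hypoxia-inducible factor subunit HIF-2α, was called higher in both comparisons, at 1.52 for CiCM minus MEF and 3.69 for CM minus MEF. Hif1a was not called for CiCM minus MEF at 0.20 and was called lower for CM minus MEF at -1.499. Higd1b, also on the list of mural markers, had the widest called differences here, 6.25 for CM minus MEF and -5.83 for CiCM minus CM. With 32 added to the linear signals these were 3.92 and -3.73. In all, 1 of the 9 was called higher and 1 lower for CiCM minus MEF, beside 11.6% and 12.2% of all tested genes. For CM minus MEF 4 were called higher and 2 lower, beside 22.1% and 21.8%. For CiCM minus CM 1 was called higher and 3 lower, beside 16.5% and 19.0%.

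Targets of hypoxia-inducible factors, which include COX4I2 in human cells, were split in direction. For CiCM minus MEF 2 of the 16 were called higher and 6 lower (median -0.42), beside 11.6% and 12.2% of all tested genes. For CM minus MEF 2 were called higher and 5 lower (median 0.02), beside 22.1% and 21.8%. For CiCM minus CM 3 were called higher and 5 lower (median -0.10), beside 16.5% and 19.0%. Ndrg1 at -1.85, Aldoc at -1.64, Egln3 at 1.63 and the glucose transporter Slc2a1 at -1.56 had the widest called differences for CiCM minus MEF. P4ha1 at -2.99, Egln1 at 2.71, Slc2a1 at -2.42 and P4ha2 at -2.38 had them for CM minus MEF.

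Since the muscle forms belong to heart, skeletal muscle and in part brown fat, markers of each are given beside them. Summed skeletal muscle markers lay at 17.75 to 17.94 in CiCM, 14.04 to 15.03 in CM and 8.72 to 9.34 in MEF on the log2 scale. The CM sum was mostly the single gene Ckm, at 13.93, 14.97 and 14.99, which heart also expresses. In CM 8 of the 16 markers were under the median of the table on all arrays, so the CM sums were not read as amounts of skeletal muscle. Summed cardiomyocyte markers lay at 15.47 to 15.51 in CiCM, 18.43 to 18.59 in CM and 9.61 to 9.93 in MEF. In CiCM that sum was mostly Tnnt2 (mean 14.50), Myoz2 (13.45) and Myl2 (13.35), while Ryr2 (5.19), Tnni3 (5.77), Pln (6.52) and Nppa (6.64) were dim. The part of each cell type in the CiCM values of these genes was not tested.

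Brown-fat markers were mixed, with 3 called higher and 3 lower of 10 tested for CiCM minus MEF, beside 11.6% and 12.2% of all tested genes. For CM minus MEF 6 were called higher and 1 lower, beside 22.1% and 21.8%. For CiCM minus CM 2 were called higher and 6 lower, beside 16.5% and 19.0%. The brown-fat markers summed to 11.37 to 11.87 in CiCM, 15.38 to 15.97 in CM and 12.26 to 12.34 in MEF. In CM the largest part of that sum was the single gene Fabp4 (mean 15.15), so the CM sums were not read as amounts of brown fat. Adipoq was at 13.497, 6.21 and 5.09 in CM, and so was high on CM replicate 1 alone. Cidea was not, at 12.38, 10.53 and 10.72 in CM, and was called for CM minus MEF at 8.88. For CiCM minus MEF, Cidea at 5.29 and Dio2 at 4.40 were called higher, and Ebf2 at -4.72 and Fabp4 at -3.37 lower. Cidea was dim in MEF, and with 32 added to the linear signals its CiCM minus MEF difference was 2.51. Ucp1, the defining gene, was at 2.28, 2.18 and 1.88 in CiCM, 13.27, 6.60 and 3.64 in CM and 2.79, 1.33 and 2.43 in MEF, so CiCM values were as dim as those of MEF. On the array with the high Ucp1 value, CM replicate 1, Cox7a1 and Cox8b were the lowest of the CM arrays as deposited, an order that turned on the hybridisation controls, where Cox7a1 was 14.53, 14.45 and 14.53 and Cox8b 14.50, 14.43 and 14.59 in CM replicates 1 to 3. Without that array CM minus MEF was 8.51 for Cox7a1, 12.06 for Cox8b and 6.85 for Cox6a2. The part of brown fat in the CM values of these genes was not tested.

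CM replicate 1 lay below the mean of the other CM arrays for 7 of the 8 genes, by 0.83 for Cox4i2, 0.55 for Cox8b, 0.50 for Cox7a1, 0.46 for both Cox6a2 and Cox7a2, 0.44 for Cox4i1 and 0.02 for Cox6a1. The exception was Cox8a, with -0.38 for the other arrays minus replicate 1. The hybridisation controls of that array lay below those of the other CM arrays by 0.54.

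Among the 8 genes, other scalings of the arrays turned signs for Cox6a1 and Cox8a only. Centring each array on its median moved the median of all tested genes by -0.06 for CiCM minus MEF, -0.37 for CM minus MEF and 0.31 for CiCM minus CM, and levelling on the hybridisation controls moved it by -0.23, -0.80 and 0.58. Both take 1 constant from an array, so a gene's distance from the median of all tested genes stays as deposited. For CM minus MEF, Cox6a1 was 0.07 as deposited, -0.32 (limma adjusted p = 0.00515) after quantile normalisation, -0.30 (0.0104) with medians centred and -0.73 (0.00117) on the hybridisation controls, where the median of all tested genes was -0.84. Cox8a was 0.27 as deposited, 0.17 after quantile normalisation, -0.10 with medians centred and -0.53 (limma adjusted p = 0.0449) on the controls. Cox4i1 and Cox7a2 stayed above 0 under all 4 scalings, at 0.86 to 1.66 and 1.05 to 1.85 for CM minus MEF and at 0.48 to 0.71 and 0.60 to 0.83 for CiCM minus MEF. Cox6a2, Cox7a1 and Cox8b were called in both comparisons with MEF under every alternative run.

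**Figure D4:**
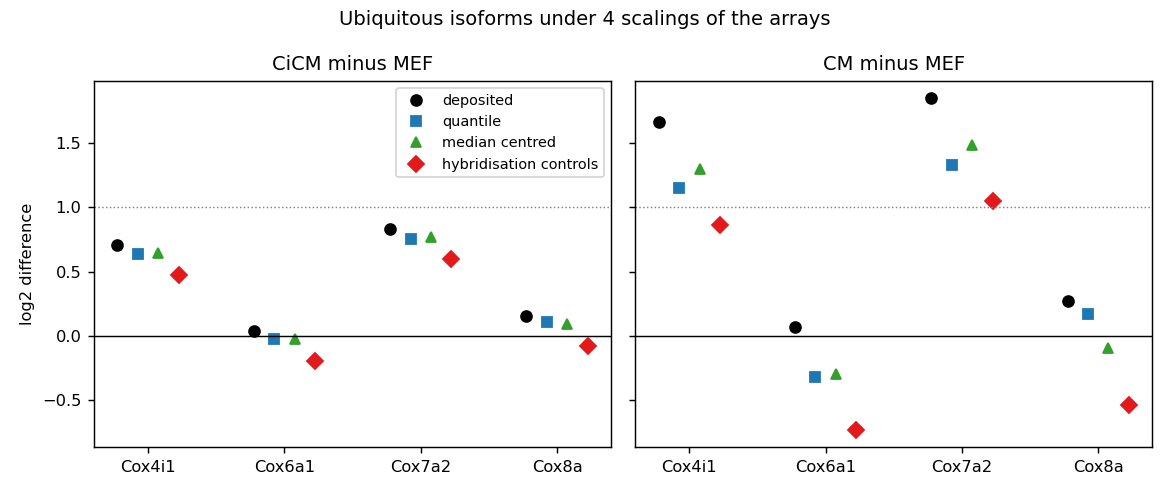
Log2 difference of the 4 ubiquitous isoforms under the deposited scaling, quantile normalisation, median centring and levelling on hybridisation controls, for CiCM minus MEF (left) and CM minus MEF (right), with a dotted line at 1. Cox4i1 and Cox7a2 stay above 0 throughout, Cox6a1 is above 0 only as deposited, and Cox8a turns sign on the controls in both panels and with medians centred in CM minus MEF.

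The genes with the most similar profiles were found from the root mean square difference of log2 profiles, each centred on its own mean over the 9 arrays, which share 1 scaling and 3 groups. Nearest to Cox4i1 were Cox6c (0.055), Ndufb6 (0.062) and Ndufa13 (0.071), and nearest to Cox7a2 were Atp5j2 (0.037), Ndufa1 (0.037) and Cox6c (0.047). For Cox6a1 they were Znhit1 (0.053), Gtf3c6 (0.054) and Parl (0.057), and for Cox8a Fundc1 (0.078), Fra10ac1 (0.091) and Plekha1 (0.092). Cox6a1 was nearly flat, so flat genes lie near it, and its Pearson correlations with those named were 0.69, 0.79 and 0.31. Cox6a2 was nearest to Fhod3 (0.17), Rbm24 and Fabp3 (0.18 each), all of which differed by 5.02 to 5.35 for CiCM minus MEF. Cox7a1 had Asb11 (0.42), Asb14 (0.42) and Art3 (0.45), and their CiCM minus CM differences were -4.19, -3.57 and -3.77. The genes nearest to Cox8b were farther off by this measure, with Lmod2 at 0.61, Ttn at 0.77 and Myl2 at 0.83. They differed by 8.97, 10.09 and 8.46 for CiCM minus MEF. Their Pearson correlations with Cox8b were 0.9955, 0.9892 and 0.9954, and its dim MEF values were spread, at 2.11, 1.77 and 5.41. Cox4i2 was nearest to Gpatch1 and Mrpl3 (0.14 each) and Pik3cd (0.15).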

How the data were processed

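Total RNA from 3 CiCM, 3 CM and 3 MEF samples was amplified with a 3' kit, biotin-labelled and hybridised to 1 array each, per the labels' protocols. Signals were made by the authors with MAS5 (version not given in the sources used here), per the submitters' processing notes, and deposited on the log2 scale. The 2% trimmed mean of the linear signals was 500.003 on every array, and the lowest deposited log2 value was 0. No detection calls were used.

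Of 45101 probe sets, 34945 carried 1 gene symbol, 932 several, 9160 none, and 64 were controls; the annotation gave 18193 genes. The probe set brightest on average stood for each gene, and 5634 genes whose highest group mean was under 6.58 were left out. limma 3.58.1 (R 4.3.3; lmFit, eBayes with a trend) was fitted to all 9 arrays and adjusted by the Benjamini-Hochberg method over 12559 genes. Isoform ratios were compared with exact permutation tests. The fit was tested on simulated data. The highest correlation between 2 arrays was 0.975, so no 2 arrays held the same values. The number of arrays limits the precision.

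The members and lists were chosen with earlier results of these data known. Named were all 8 members with all probe sets, other complex IV subunits, Cycs and the carriers, and 3 nearest profiles per member. The plan was to name up to 4 called genes per other list and comparison, by size, which was not kept to in every list. Further genes, such as Pdgfrb, Cspg4, Des, Hand2, Pln, Ryr2, Nppa, Cox15 and Pet100, were named after their values were seen. Promoter windows came from RefSeq (GRCm38.p6), and all 8 members matched its gene table by Entrez ID. Alternatives were 1, 32 or 4 times 32 added to linear signals, other filters, scalings, probe set rules and variance models, fits of only the 2 compared groups, a replicate block and leaving out each array.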

Additional observations from a re-analysis of the deposited data

How the results depend on the processing

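Differences of Cox6a2, Cox7a1 and Cox8b against MEF kept their sign and call under all 24 alternatives, within 4.70 to 5.93, 3.03 to 4.36 and 5.56 to 10.76 for CiCM minus MEF. Isoform counts for CiCM minus MEF were 3 with any 1 array left out (3 to 3) and 5 with no minimum difference. For CM minus MEF they were 5 to 6 with 1 array left out, and 4 on the hybridisation controls, where Cox4i1 fell short of the minimum at 0.86. For CiCM minus CM they were 2 to 5 with 1 array left out (2 without CM replicate 2 or 3, 3 without CiCM replicate 1 or 3, 5 without CM replicate 1). On the hybridisation controls that count was 2, with Cox6a2 short of the minimum at -0.92. Signs turned for Cox6a1 and Cox8a only. Cox6a1 for CiCM minus MEF was -0.024 with quantile normalisation, -0.021 with medians centred and -0.19 on the hybridisation controls; for CM minus MEF it was -0.32, -0.30 and -0.73, and -0.0075 as a mean over probe sets; for CiCM minus CM it was 0.29, 0.27, 0.54 and 0.014. Cox8a was -0.076 on the controls for CiCM minus MEF, -0.10 with medians centred and -0.53 on the controls for CM minus MEF, and 0.19 and 0.46 for CiCM minus CM, where leaving out 1 array gave -0.23 to 0.010 (0.010 without CM replicate 1). The share of called genes that were higher was 48.6%, 50.4% and 46.5% as deposited (CiCM minus MEF, CM minus MEF, CiCM minus CM), 45.3%, 35.1% and 62.4% with medians centred and 35.4%, 22.1% and 74.5% on the controls. Counts of all called genes were 2987, 5515 and 4462, and 6529, 8790 and 8089 with no minimum; with 4 times 32 added to the linear signals the first was 1900. With that constant, the ratio shift of subunit 8 for CiCM minus MEF was 5.41 and that of subunit 4 for CM minus MEF -1.21; no shift changed sign. Same-numbered arrays did not deviate together (correlations of -0.02 to 0.07, 0 of 9 over 0.1). Array noise could hide a shared origin, so this does not tell whether the numbers pair them. With a replicate block the isoform counts were 3, 5 and 4, as without it. Ratio shifts taken as pairs had p = 0.25 in an exact sign-flip test, the smallest 3 pairs allow. Cox4i2 is under the filter at the 75th percentile of the table (8.91). The causes of these changes were not tested.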
